A study of Mus musculus with 3 samples.

Results

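Endocardial nuclei were taken from mouse heart by the accessibility of 10 genes, Npr3, Plvap, Vwf, Cgnl1, Sall1, Ptgs2, Adh6b, Tm4sf4, Shisa2 and Prokr2. Of 3858 barcodes called as nuclei in the sunitinib library 27 met the rule, and of 2696 in the vehicle library 47 did, which makes 74 of 6554 in all. A called barcode had at least 1000 unique fragments on chromosomes 1 to 19 and X and a transcription start site (TSS) enrichment of at least 4, the density of fragment ends within 50 bp of start sites over that at 1900 to 2000 bp. A member also had at least 4 fragments over the 10 marker genes (gene body plus 2 kb upstream), and these made up at least 4 times the share they have among all fragments of the vehicle file. That share was 0.0338%, so the threshold stood at 0.135% of a barcode's fragments. Because these values chose the members, the markers are described below without a test.

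The study profiled nuclei of snap-frozen hearts of WT mice by single-nucleus multiome sequencing, which reads RNA and open chromatin (ATAC) from the same nuclei. The ATAC fragments alone are described, and the RNA was not analysed here. One group (TKI in the titles) had been given sunitinib, per the design text, an inhibitor of receptor tyrosine kinases that is used against tumours, and the other vehicle. A library of sunitinib with Yoda1 was not used here, and the 3 months named in the titles are not explained there as an age or a treatment time. There was 1 library per group, and neither the strain nor the number of hearts in a library is given in the sources used here, so drug and library cannot be told apart. No test between treatments was possible, and each 95% interval is one of counting error alone.

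The endocardium is the endothelial sheet that lines the heart chambers and covers the valves. In the embryo it arises apart from the coronary vessels in large part, sends neuregulin and other signals to the muscle beneath it, and gives rise to valve cells by endothelial to mesenchymal transition. In the adult it is set apart from capillary endothelium by genes such as Npr3, the clearance receptor for natriuretic peptides, and it lies under the pressure and shear of the chamber blood.

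The sunitinib library held 23653823 unique fragments and the vehicle library 18704581. Members held 124504 fragments under sunitinib and 161971 under vehicle, with medians of 3143 and 2839 per nucleus. The median TSS enrichment of members was 28.8 under sunitinib and 24.7 under vehicle. The member with most fragments held 15.1% of all member fragments under sunitinib and 10.7% under vehicle. Of the called barcodes, 22 sequences occurred in both libraries, and 0 sequences were members in both. Whether any of the 22 was a member in only the sunitinib or only the vehicle library was not counted. No doublet caller was run. Among members, 6 under sunitinib and 6 under vehicle also met the rule of the capillary class or of a non-endothelial class. That count left out the other endothelial rules. The venous rule was met by 5 sunitinib and 2 vehicle members, and the lymphatic rule by 1 and 0. The arterial rule was met by 0 sunitinib and 1 vehicle members, and the pan-endothelial rule by 1 and 0.

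All 10 markers had fragments in members of both libraries. Cgnl1, which encodes a junctional protein of the cingulin family, had 90 fragments in 26 of 27 members under sunitinib and 111 in 37 of 47 under vehicle. Vwf, the von Willebrand factor of the clotting system, had 48 fragments in 22 sunitinib members and 63 in 33 vehicle members. Npr3 had 27 fragments in 14 members under sunitinib and 50 in 25 members under vehicle. These 3 genes held most of the marker fragments in both libraries. Plvap, a component of the diaphragms of endothelial pores, had 11 fragments under sunitinib and 22 under vehicle. Tm4sf4 had 10 sunitinib and 24 vehicle fragments, Prokr2 (a prokineticin receptor) 7 sunitinib and 16 vehicle, and Sall1 (a zinc finger transcription factor) 12 sunitinib and 13 vehicle. The 3 rarest markers were Ptgs2, the inducible prostaglandin synthase, with 4 sunitinib and 12 vehicle fragments, Adh6b with 3 sunitinib and 7 vehicle, and Shisa2 with 2 sunitinib and 5 vehicle. The 3 Adh6b fragments of the sunitinib library lay in 1 nucleus.

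Members stood close to the threshold in both libraries. Exactly 4 marker fragments were held by 10 of 27 sunitinib members and 13 of 47 vehicle members, and 7 or more by 13 and 18. The marker share was 4.06 to 7.60 times the vehicle background under sunitinib, with a median of 4.92. Under vehicle it was 4.06 to 16.6 times, with a median of 5.71. Just inside the limit, at 4 to 5 times, were 14 sunitinib and 17 vehicle members. Just outside it, at 3 to 4 times with at least 4 marker fragments, were 24 sunitinib and 33 vehicle barcodes. A further 8 sunitinib and 22 vehicle barcodes passed the share but had only 3 marker fragments. The median member had fragments on 3 different markers under sunitinib and on 4 under vehicle, and 1 sunitinib and 3 vehicle members rested on a single marker.

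The markers' own promoters carried few of these fragments. RefSeq promoter windows (250 bases before to 50 after a gene start, build GRCm38.p6) were found for 7 of the 10 markers, and 4 genes had one with at least 4 member fragments over both libraries. For these 1 window per gene is shown, since these are the marker promoters that were open often enough to be seen in members. Capitals mark 3 letter patterns searched on both strands, the ETS core (CCGGAA or AGGAAG), a KLF-type GC box (GGGCGGG or GGGTGGG) and the NFAT core (GGAAAA).
Cgnl1 (chr9:71771553-71771852, minus strand): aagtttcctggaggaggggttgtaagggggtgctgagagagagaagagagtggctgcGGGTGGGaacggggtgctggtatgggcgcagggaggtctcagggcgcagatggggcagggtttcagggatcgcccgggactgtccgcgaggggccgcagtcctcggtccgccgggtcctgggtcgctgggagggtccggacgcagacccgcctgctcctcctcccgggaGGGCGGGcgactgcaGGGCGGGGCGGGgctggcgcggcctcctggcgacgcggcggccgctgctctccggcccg
Ptgs2 (chr1:150099781-150100080, plus strand): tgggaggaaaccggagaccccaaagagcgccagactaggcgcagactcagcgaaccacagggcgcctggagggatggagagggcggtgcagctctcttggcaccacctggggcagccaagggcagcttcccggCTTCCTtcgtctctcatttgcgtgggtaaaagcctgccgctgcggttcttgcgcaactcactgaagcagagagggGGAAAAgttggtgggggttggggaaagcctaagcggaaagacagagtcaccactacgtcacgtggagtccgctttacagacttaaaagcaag
Sall1 (chr8:89042813-89043112, minus strand): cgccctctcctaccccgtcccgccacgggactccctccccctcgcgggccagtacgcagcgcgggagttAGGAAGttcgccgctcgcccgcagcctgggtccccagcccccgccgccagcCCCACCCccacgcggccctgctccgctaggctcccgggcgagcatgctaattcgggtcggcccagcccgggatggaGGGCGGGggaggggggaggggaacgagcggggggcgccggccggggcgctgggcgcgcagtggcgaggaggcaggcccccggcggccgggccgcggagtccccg
Shisa2 (chr14:59625031-59625330, plus strand): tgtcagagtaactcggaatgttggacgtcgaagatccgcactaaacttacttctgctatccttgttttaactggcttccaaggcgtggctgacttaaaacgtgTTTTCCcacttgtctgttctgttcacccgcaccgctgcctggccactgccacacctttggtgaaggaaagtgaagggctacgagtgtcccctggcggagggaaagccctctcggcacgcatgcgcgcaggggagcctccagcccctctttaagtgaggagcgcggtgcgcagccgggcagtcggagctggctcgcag
The Cgnl1 window had 5 sunitinib and 2 vehicle fragments in endocardial nuclei, and 2 sunitinib and 7 vehicle fragments in capillary nuclei, so it was open in both classes. The Ptgs2 window had 3 sunitinib and 2 vehicle fragments in endocardial nuclei and 0 in capillary nuclei of either library. The Sall1 window had 1 sunitinib and 3 vehicle fragments in endocardial nuclei and 0 in capillary nuclei. A second Sall1 window (chr8:89043463-89043762), not shown, had the same counts, with 1 KLF-type and 1 TEAD match. Another Sall1 window (chr8:89044113-89044412), over the annotated gene start, had 0 endocardial fragments in either library. In capillary nuclei it had 2 sunitinib and 0 vehicle fragments. The Shisa2 window had 2 sunitinib and 2 vehicle fragments in endocardial nuclei, against 0 and 1 in capillary nuclei. The KLF-type pattern occurred 4 times in Cgnl1, where 2 bases are shared by a pair of adjoining matches, and 2 times in Sall1. The ETS pattern occurred 1 time each in Ptgs2 and Sall1, and the NFAT pattern 1 time each in Ptgs2 and Shisa2, with 0 bases shared between different patterns. These patterns are common: of all 32851 RefSeq promoter windows, 45.2% held the ETS, 36.6% the KLF-type and 23.4% the NFAT pattern. The GATA pattern (AGATAA or TGATAA), held by 18.6% of all windows, was in none of the 4 shown. Nor were the AP-1 (TGANTCA, 7.81%), FOX (TGTTTAC or TGTTTGC, 8.48%), SOX (ACAATG or ACAAAG, 28.6%) and COUP-TF (AGGTCA, 16.3%) patterns. The TEAD pattern (GGAATG, 14.7%), not capitalised above, occurred 1 time in Shisa2.

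Endocardial nuclei made up 0.700% of called barcodes in the sunitinib library (27 of 3858, exact Clopper-Pearson 95% interval 0.462 to 1.02) and 1.74% in the vehicle library (47 of 2696, 1.28 to 2.31). The log2 ratio of the shares was -1.31 (-2.06 to -0.60). Its size depended on the background used. With each library's own background, which was 0.0274% in the sunitinib file, 45 of 3858 sunitinib barcodes (1.17%) and 47 vehicle barcodes met the rule, and the log2 ratio was -0.58 (-1.20 to 0.04). Thinning each barcode to 2000 fragments gave 29 sunitinib and 33 vehicle members, or 1.24% and 2.25% of the barcodes deep enough. The sunitinib library also held 444 barcodes that met a T lymphocyte rule, against 50 in the vehicle library. Among barcodes that met no lymphoid rule the endocardial share was 0.799% under sunitinib and 1.80% under vehicle. The part of these lymphocyte nuclei in the lower share was not tested, and fewer endocardial cells in the heart and fewer of them recovered cannot be told apart.

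**Figure D1:**
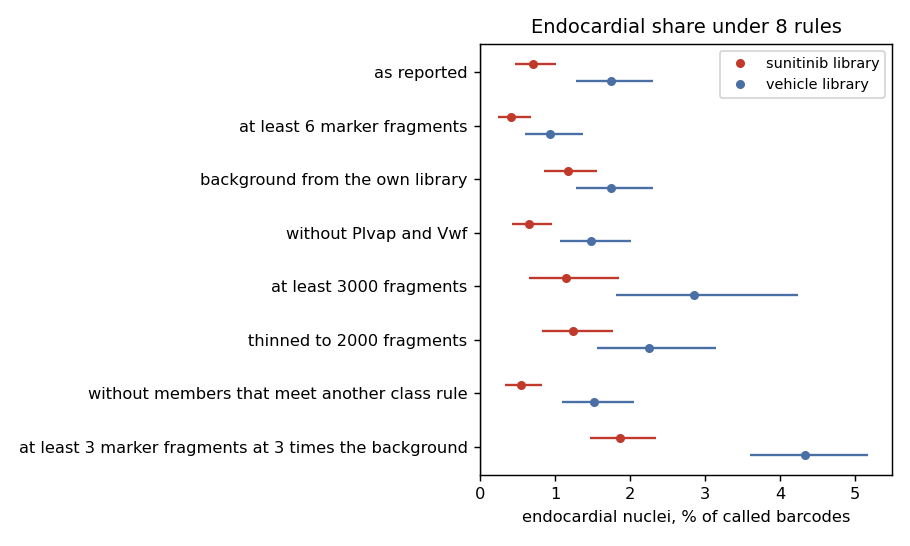
Endocardial nuclei as a percentage of called barcodes (x axis) in the sunitinib library (red, upper of each pair) and the vehicle library (blue), under the reported rule and 7 other rules; points are shares and lines exact 95% binomial intervals. The sunitinib share is the lower one in all 8 pairs, at 0.700% against 1.74% under the reported rule, and the intervals are apart there, but overlap under 4 of the other rules (6 marker fragments, own background, 3000 fragments, thinned).

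The 10 markers were counted over whole libraries too, as a description, since they are the genes of the rule. Over all fragments of each library the 10 markers together had 273.6 CPM (counts-per-million, the fragments counted over a gene set scaled to all fragments of the library or class) under sunitinib and 337.7 under vehicle, for a log2 ratio of -0.30. Members held 3.31% of these marker fragments under sunitinib and 5.12% under vehicle, so most marker fragments came from other barcodes or from outside called nuclei. Among T lymphocyte barcodes, which should lack endocardial marker use, 0 of 444 sunitinib barcodes (median 2787 fragments) met the endocardial rule, which allows a share of up to 0.676%. The vehicle count was 0 of 50 (median 2452 fragments), which allows up to 6%. Among cardiomyocyte barcodes 0 of 240 sunitinib and 1 of 204 vehicle barcodes met it.

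The endocardial identity was checked with 16 other endocardial genes that the rule did not use. As a list they were set against capillary nuclei and not against venous barcodes. The comparison class was capillary vascular endothelium, chosen by the same thresholds on 12 capillary genes (152 sunitinib and 89 vehicle nuclei). Summed, the 16 genes had 239 fragments in sunitinib members and 332 in vehicle members. Against capillary nuclei of the same library their log2 ratio was 0.91 (0.68 to 1.12) under sunitinib and 1.03 (0.80 to 1.26) under vehicle. Of the genes with at least 20 fragments in the 2 classes together, 10 of 11 were higher in endocardial than in capillary nuclei under sunitinib, and 8 of 10 under vehicle. Their median log2 ratio was 0.81 under sunitinib and 0.95 under vehicle. Over all protein-coding genes with the same minimum the median was -0.05 (9440 genes) under sunitinib and -0.08 (5947 genes) under vehicle. Here a gene is called when its ratio is past 2-fold, with at least 50 fragments over both classes and at least 15 expected in each. Of all genes so measured, 2.33% of 1029 were at least 2-fold higher in endocardial nuclei under sunitinib and 3.91% of 1151 under vehicle.

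Several of these 16 genes were higher than in capillary nuclei one by one. Cdh11, a cadherin of mesenchymal and valve cells, had 18 sunitinib and 23 vehicle fragments in endocardial nuclei, and 3 sunitinib and 5 vehicle fragments in capillary nuclei, which held more fragments in all. Its log2 ratio over capillary was 4.62 (3.03 to 7.21) under sunitinib and 2.91 (1.59 to 4.77) under vehicle. Tmem108 had 38 sunitinib and 51 vehicle endocardial fragments, with ratios of 2.76 (2.01 to 3.55) under sunitinib and 2.15 (1.40 to 2.99) under vehicle. Against venous barcodes its endocardial level was 305 CPM (216 to 419) beside 71.4 (32.7 to 136) under sunitinib, while under vehicle the intervals overlapped, at 315 CPM (234 to 414) beside 229 (144 to 347). Gata4, a transcription factor of the embryonic endocardium and of heart muscle, had 16 sunitinib and 29 vehicle fragments, with ratios of 1.77 (0.74 to 2.76) under sunitinib and 2.18 (1.17 to 3.36) under vehicle. Hmcn1, an extracellular matrix gene, had ratios of 0.81 (0.24 to 1.33) under sunitinib and 0.57 (-0.03 to 1.15) under vehicle. Nfatc1, the transcription factor best known for valve formation, did not separate the classes by much, at 0.29 (-0.32 to 0.84) under sunitinib and 0.40 (-0.23 to 1.00) under vehicle. Bmp6 was at -0.40 (-1.19 to 0.25) under sunitinib and -0.14 (-0.87 to 0.52) under vehicle. Hapln1, Cytl1, Gata5, Tbx20 and Edn1 had at most 5 fragments in members of either library and give no useful ratio. Emcn, Foxc1, Gata6 and Pkhd1l1 are not described one by one, so the genes named here are not the whole list.

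The depth of marker evidence mattered to this check. Members with 5 or more marker fragments had 2078 CPM over the 16 genes under sunitinib (exact Poisson interval 1803 to 2383) and 2209 under vehicle (1962 to 2478). Members with exactly 4 had 1315 under sunitinib (911 to 1838) and 1370 under vehicle (987 to 1851). Called barcodes outside the endocardial rule had 930 under sunitinib and 1121 under vehicle. The level of the rest lay within the interval of the members at the threshold in both libraries, and below that of the members above it.

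Lists of cell-type genes were then compared between members and other barcodes. The 18 pan-endothelial genes, among them Pecam1, Cdh5, Tek and Erg, were higher in members than in all other called barcodes, with log2 ratios of 0.76 (0.57 to 0.93) under sunitinib and 0.43 (0.25 to 0.59) under vehicle. Summed, the 7 B lymphocyte genes were higher by as much, at 0.73 (0.35 to 1.06) under sunitinib and 0.40 (0.06 to 0.71) under vehicle. That sum rests on few genes. In members of each library 3 of the 7 had no fragment, and 1 had at least 20 over both libraries. The 8 fibroblast genes stood at 0.70 (0.08 to 1.21) under sunitinib and 0.47 (-0.04 to 0.91) under vehicle. Against all other barcodes the endothelial sum was thus not set apart from these sums. Against capillary nuclei the pan-endothelial genes were near level, at -0.13 (-0.33 to 0.05) under sunitinib and -0.22 (-0.43 to -0.02) under vehicle. The 10 cardiomyocyte genes lay at -1.18 under sunitinib and -0.77 under vehicle against all other barcodes. Their level in members was 369 CPM under sunitinib and 525 under vehicle, and 9 of the 10 had a fragment in each. The 10 T lymphocyte genes had 177 CPM in sunitinib members and 198 in vehicle members. Fibroblast genes were 0.94 (0.23 to 1.57) above capillary nuclei under sunitinib and 0.85 (0.18 to 1.53) under vehicle, on 28 sunitinib and 40 vehicle fragments. The 8 mural genes, of pericytes and smooth muscle, stood at 0.45 (-0.29 to 1.10) over capillary nuclei under sunitinib and 0.31 (-0.38 to 0.98) under vehicle. The part that fragments from other cells play in the member profile was not tested.

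Members shared some features with venous endothelium, more in the sum of the venous genes than gene by gene. Summed, the 9 venous genes were higher than in capillary nuclei by 0.98 (0.56 to 1.38) under sunitinib and 0.92 (0.41 to 1.44) under vehicle. The sums rested on 72 sunitinib and 69 vehicle endocardial fragments. Few of the genes had at least 20 fragments in the 2 classes together. Of those, 3 of 3 were higher under sunitinib and 1 of 2 under vehicle. Vcam1, a leukocyte adhesion molecule, had 7 sunitinib and 9 vehicle fragments in endocardial nuclei, against 8 sunitinib and 3 vehicle in capillary nuclei, and ratios of 2.04 (0.33 to 3.69) under sunitinib and 2.26 (0.40 to 4.92) under vehicle. Selp, the selectin stored with von Willebrand factor, had 8 sunitinib and 5 vehicle fragments in endocardial nuclei, against 6 sunitinib and 2 vehicle in capillary nuclei. Ephb4, the vein-defining Eph receptor, did not separate the classes, at 0.12 under sunitinib and -0.04 under vehicle. Of barcodes that met a venous rule, 5 of 33 under sunitinib and 2 of 25 under vehicle were endocardial members, and Vwf and Plvap are also used by venous cells. With the rule and its background rebuilt without Plvap and Vwf, 25 sunitinib and 40 vehicle barcodes met it. How many of these were members under the full rule was not counted.

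Genes of natriuretic peptide, nitric oxide and cyclic GMP signalling formed a set of 11. Summed, they were also higher than in capillary nuclei, by 0.96 (0.68 to 1.24) under sunitinib and 0.99 (0.65 to 1.32) under vehicle. The genes with at least 20 fragments in the 2 classes together were less even. Under sunitinib 3 of 6 were higher, with a median of 0.04, and under vehicle 3 of 4, with a median of 0.57. Prkg1, the kinase that cyclic GMP activates, had the most fragments of the set, 76 of 154 fragments under sunitinib and 86 of 162 under vehicle. Its ratio was 2.11 (1.64 to 2.58) under sunitinib and 1.68 (1.16 to 2.23) under vehicle. Gucy1a1, a subunit of the nitric oxide receptor, had 9 sunitinib and 11 vehicle fragments in endocardial nuclei, against 1 sunitinib and 5 vehicle in capillary nuclei. Pde2a, a cyclic nucleotide phosphodiesterase, did not separate the classes, at -0.29 under sunitinib and -0.05 under vehicle. Fatty acid uptake genes lay in the other direction, at -1.14 (-1.57 to -0.75) under sunitinib and -1.69 (-2.13 to -1.29) under vehicle, but Gpihbp1, Fabp4 and Meox2 of this list also chose the capillary class. Cd36, the fatty acid transporter, did not, and stood at -1.48 (-2.64 to -0.62) under sunitinib and -1.69 (-2.67 to -0.91) under vehicle. Basement membrane genes were lower at -0.40 (-0.61 to -0.19) under sunitinib and -0.46 (-0.68 to -0.25) under vehicle, while Notch and BMP and TGF-beta genes were near level in both libraries. Bmpr1a, a BMP receptor, was an exception within its list, with 16 fragments in endocardial nuclei of each library and ratios of 1.91 (0.85 to 2.92) under sunitinib and 1.95 (0.65 to 3.53) under vehicle.

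**Figure D2:**
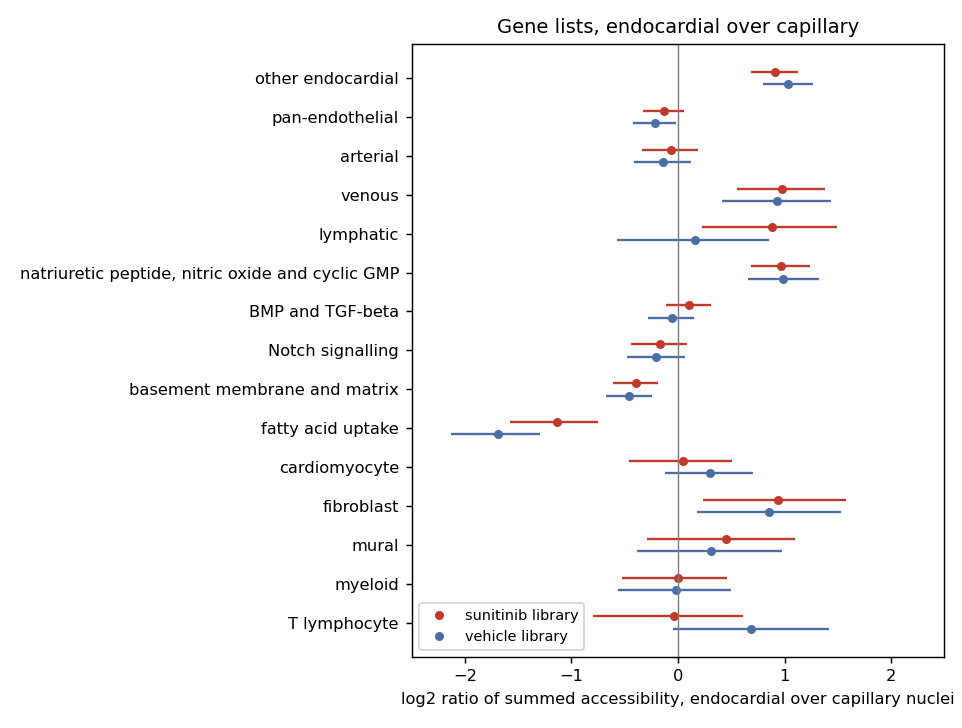
Log2 ratio of summed accessibility in endocardial over capillary nuclei (x axis) for 15 gene lists, in the sunitinib library (red, upper) and the vehicle library (blue), with exact 95% counting intervals. The other endocardial, venous and cyclic GMP lists lie near 1 in both libraries, pan-endothelial genes near 0 and fatty acid uptake genes below -1. Prkg1 had the most fragments of the cyclic GMP list.

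Genes of the whole genome were also ranked in the vehicle library and then read in the sunitinib library, which the ranking did not use. The 15 highest genes of endocardial over capillary nuclei, markers of both rules left out, were Pde3a, Kcnt2, Nrg1, Tmem108, Dapk1, Esrrg, Rasgef1b, Iqgap2, Prkg1, Nt5c2, Greb1l, Zfp609, Zfpm2, Chrm3 and Gpc6. In the sunitinib library 15 of 15 were higher in endocardial nuclei, 10 of 15 by at least 2-fold and 10 with an interval above 0. Kcnt2, a sodium-activated potassium channel, had 17 fragments in endocardial and 8 in capillary nuclei under sunitinib, a log2 ratio of 3.26 (2.02 to 4.73). Pde3a, a phosphodiesterase that cyclic GMP inhibits, stood at 1.89 (1.03 to 2.73) and Chrm3, a muscarinic acetylcholine receptor, at 2.05 (1.40 to 2.70). Zfpm2, the cofactor of GATA4 also called FOG2, stood at 1.09 (0.18 to 1.91). Nrg1, Esrrg, Iqgap2, Zfp609 and Gpc6 were between 0.46 and 0.80 with intervals that included 0. The 15 lowest genes, which include Ccdc85a, Dach1, Pparg and Cd36, were lower in endocardial nuclei of the sunitinib library in 15 of 15 cases, 8 of them by at least 2-fold. Of all measured genes 5.93% were at least 2-fold lower in endocardial than in capillary nuclei under sunitinib and 5.21% under vehicle. Dach1, a transcription factor of coronary artery growth, stood at -1.58 (-2.53 to -0.85) under sunitinib, and Pparg, the lipid-sensing nuclear receptor, at -0.34 (-1.18 to 0.35).

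**Figure D3:**
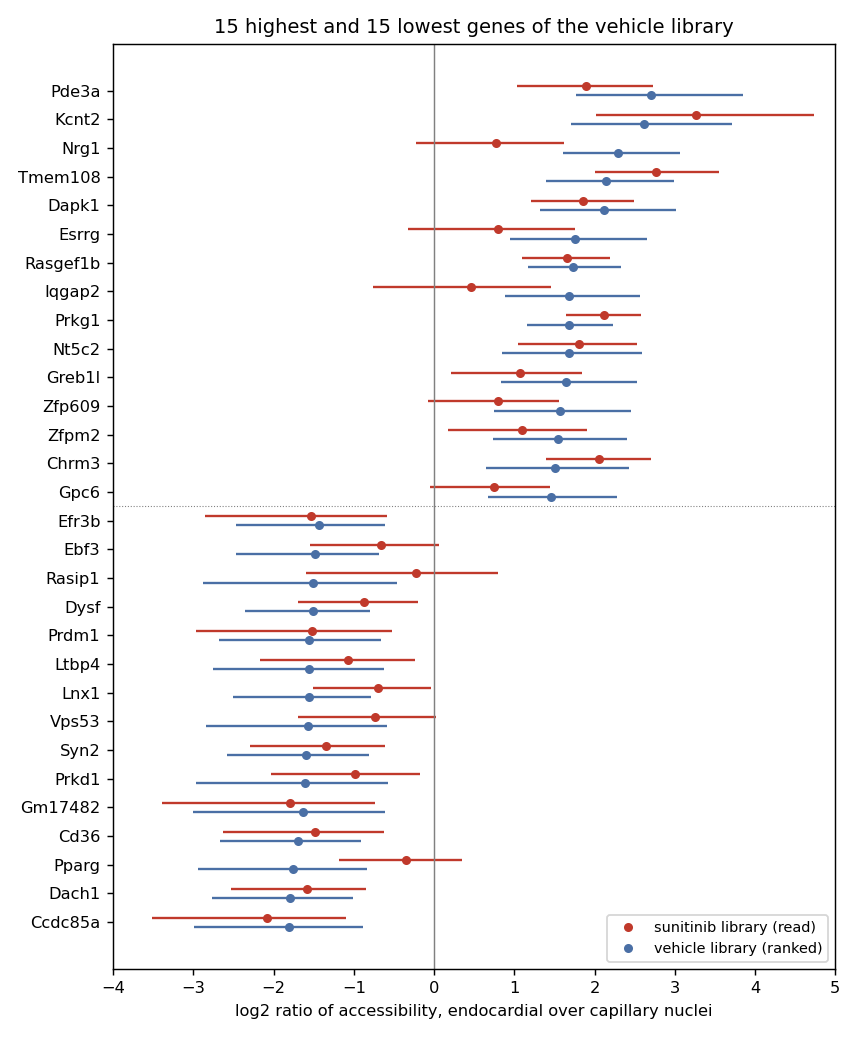
Log2 ratio of accessibility in endocardial over capillary nuclei (x axis) for the 15 highest genes (upper block) and the 15 lowest genes (lower block) of the vehicle library; red points are the sunitinib library, which the ranking did not use, blue points the vehicle library, and lines exact 95% counting intervals. All 15 red points of the upper block lie right of 0 and all 15 of the lower block left of it.

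Open chromatin away from the starts of protein-coding transcripts was counted in windows of 500 bp, some of them inside genes. The windows lay over 1 kb from any such start and over 5 kb from any marker. Starts of other transcripts were not left out. The middle of a capillary window used below lay 29 bp from the gene start of Foxp1. In the vehicle library only 25 windows had at least 8 endocardial fragments. Of these 12 lay in the block from Gm26917 to CT010467.1 (chr17:39843013-39848827, GRCm38), where GENCODE annotates a lincRNA and an rRNA gene. The 25 windows together had an endocardial over capillary ratio of 0.10 (-0.13 to 0.32) in the sunitinib library. Of the windows that passed the same minimum in capillary nuclei of the vehicle library (328), the 200 whose vehicle intervals lay furthest towards capillary nuclei stood, for endocardial over capillary, at -0.60 (-0.77 to -0.43) in the sunitinib library. Of these 67 had a log2 ratio above 0 there. Some of the 67 held no endocardial fragment and were above 0 only through the count added to each class. Of the 200 windows, 60 had no endocardial fragment in the sunitinib library. The block itself had 956 CPM in sunitinib members and 1821 in vehicle members, and 87 of the 295 vehicle fragments lay in 1 nucleus. The capillary class had 933 under sunitinib and 1038 under vehicle.

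Between sunitinib and vehicle, the gene-level accessibility of endocardial nuclei differed little where it could be measured. Requiring 100 fragments in the 2 libraries together, and 30 expected in each, left 71 autosomal genes, of which 0% were at least 2-fold higher and 0% at least 2-fold lower under sunitinib. Their median log2 ratio was 0.09. The highest was Ttc28 at 0.78 (0.23 to 1.35), with 65 sunitinib and 49 vehicle fragments. Ptprg, a receptor tyrosine phosphatase, stood at 0.67 (0.15 to 1.21), and Pakap, Sgms1 (a sphingomyelin synthase) and Agap1 at 0.67, 0.65 and 0.61. In the sunitinib library 1 nucleus held 11 of the Ttc28 fragments, and 1 nucleus held 17 to 21 of those of each of the other 4 genes. The lowest was Prkce, protein kinase C epsilon, at -0.57 (-1.10 to -0.06), with 49 sunitinib and 95 vehicle fragments, followed by Plxna4, a semaphorin receptor, at -0.55 (-1.17 to 0.02). Auts2 stood at -0.54 and Mecom, an arterial endothelial transcription factor gene, at -0.27 (-0.77 to 0.21). Lowering the minimum to 50 fragments gave 499 genes, of which 9 (1.8%) were at least 2-fold higher and 1 (0.2%) at least 2-fold lower. Among the 9 higher genes were Robo2, an axon guidance receptor, at 1.75 (0.86 to 2.78), Bcl2l1, an inhibitor of apoptosis, at 1.13 (0.31 to 2.02) and Mylk, the myosin light chain kinase, at 1.06 (0.33 to 1.84). Robo2 had 37 sunitinib fragments, 19 of them in 1 nucleus, and 14 vehicle fragments. Bcl2l1 had 34 sunitinib fragments over 19 nuclei, at most 5 in any of them, and 20 vehicle fragments over 18 nuclei.

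The 1 lower gene was Nrg1, neuregulin 1, the growth factor by which endocardium signals to ErbB receptors of heart muscle. It belongs to the 16 other endocardial genes and lies on chr8:31814551-32884029 (GRCm38, minus strand). Endocardial nuclei had 15 Nrg1 fragments in 9 of 27 nuclei under sunitinib and 65 in 26 of 47 nuclei under vehicle. A sunitinib member held at most 3, and a vehicle member at most 13, the next vehicle member having 5. The levels were 120 CPM under sunitinib (exact Poisson interval 67.4 to 199) and 401 under vehicle (310 to 512), and these intervals do not overlap. The log2 ratio was -1.70 (-2.65 to -0.91). Without the member with most Nrg1 fragments in each library it was -1.82 (-2.91 to -0.94), and without the member with most fragments -1.31 (-2.28 to -0.49).

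Nrg1 was also compared between libraries in the other classes, and the difference between classes was not tested. In capillary nuclei it had 42 sunitinib and 23 vehicle fragments, for a log2 ratio of -0.17 (-0.92 to 0.64). In cardiomyocyte barcodes it had 95 sunitinib and 91 vehicle fragments, a ratio of -0.07 (-0.50 to 0.36). Venous barcodes outside the members had 14 sunitinib and 25 vehicle fragments, a ratio of -1.21 (-2.29 to -0.23). Lymphatic (-1.03), T lymphocyte (-0.82) and epicardial barcodes (9 sunitinib and 34 vehicle fragments) were also at lower values, with intervals that included 0. All called barcodes outside the members had 109 CPM under sunitinib and 139 under vehicle, a ratio of -0.35 (-0.47 to -0.24). Members with 5 or more marker fragments had 11 Nrg1 fragments (112 CPM) under sunitinib and 61 (465 CPM) under vehicle, a ratio of -2.01 (-3.13 to -1.12). Members with exactly 4 had 4 fragments under sunitinib and 4 under vehicle, a ratio of 0.25 with an interval of -2.18 to 2.67 that includes the value of the deeper members, and the difference between these sets was not tested. The members added by the own-library background raised the sunitinib count to 38 fragments in 45 nuclei, and the ratio was then -1.22. In the larger set with 3 marker fragments at 3 times the background it was -0.93 (-1.46 to -0.44), no longer past 2-fold.

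The Nrg1 fragments lay along the gene body and not at its annotated start. In both libraries 0 of them fell within 1 kb of the gene start. With the gene cut into 5 equal stretches from that start, stretch 5 held 8 sunitinib and 25 vehicle fragments, and stretch 4 held 1 sunitinib and 23 vehicle fragments. Within 1 kb of all annotated Nrg1 start sites there were 2 sunitinib and 4 vehicle fragments, too few to compare, with a ratio of -0.47 (-4.09 to 2.18). The value therefore describes body accessibility. Nrg1 also stands among the 15 genes ranked by high vehicle values, as do Kcnt2 (17 sunitinib and 43 vehicle fragments), Esrrg (12 and 37) and Iqgap2 (10 and 37). For all 4, a lower level under sunitinib and the effect of ranking on vehicle values cannot be told apart.

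**Figure D4:**
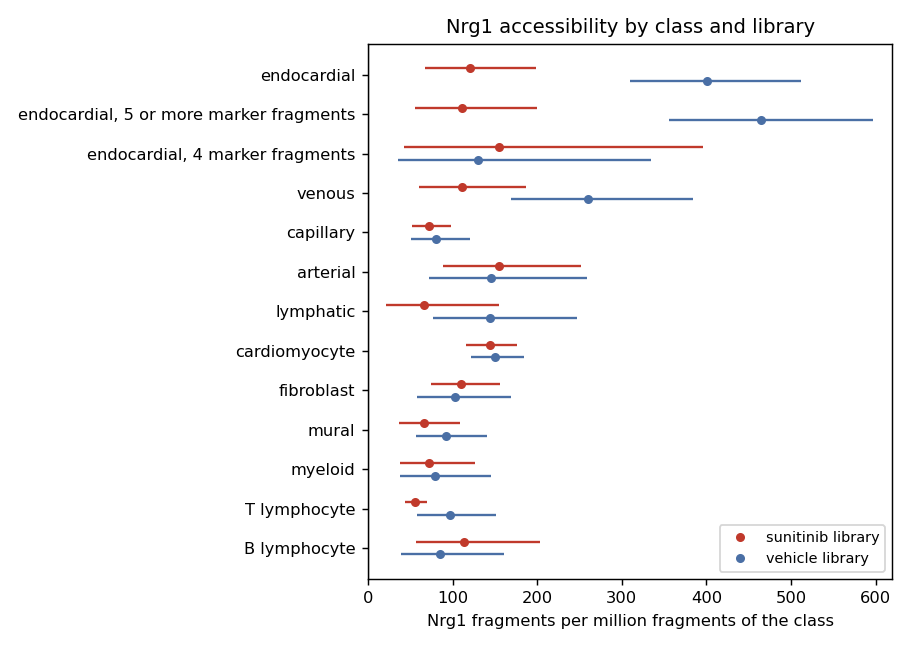
Nrg1 accessibility in CPM of each class (x axis) in the sunitinib library (red, upper) and the vehicle library (blue), for the endocardial nuclei, their subsets by marker fragments and 10 other classes; lines are exact 95% Poisson intervals. The endocardial vehicle point lies at 401, apart from the sunitinib point at 120, while capillary and cardiomyocyte pairs overlap.

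Summed, the other endocardial genes did not differ between treatments beyond counting error, while single genes had wide intervals. The 16 other endocardial genes summed to a log2 ratio of -0.09 (-0.34 to 0.15), and without Nrg1 to 0.13 (-0.14 to 0.39) on 224 sunitinib and 267 vehicle fragments. Of the 9 genes of that list with at least 20 fragments, 5 were higher and 4 lower under sunitinib, with a median of 0.03. All protein-coding genes with at least 20 fragments (2862) had a median of 0.07, with 4.96% at least 2-fold higher and 4.16% at least 2-fold lower. Tmem108 stood at -0.04 (-0.69 to 0.59), Cdh11 at 0.03 (-0.95 to 0.98), Hmcn1 at 0.18 (-0.46 to 0.82), Nfatc1 at 0.07 (-0.64 to 0.76) and Gata4 at -0.46 (-1.46 to 0.45). The 10 rule markers, which cannot serve as a test, summed to -0.21 (-0.47 to 0.04). Of them 7 had at least 20 fragments, 2 higher and 5 lower, with a median of -0.50. The neuregulin and ErbB list without Nrg1 stood at 0.33 (-0.24 to 0.89).

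The kinases that sunitinib blocks showed no shared direction. Their 9 genes summed to 97 sunitinib and 130 vehicle fragments, for a log2 ratio of -0.04 (-0.44 to 0.35), against -0.06 (-0.27 to 0.16) in capillary nuclei. Kdr, the main VEGF receptor gene, had 21 fragments under sunitinib and 23 under vehicle, a ratio of 0.25 (-0.68 to 1.17). Flt1, the VEGF receptor that also acts as a decoy, had 41 sunitinib and 53 vehicle fragments, a ratio of 0.01 (-0.62 to 0.62). Flt4, the VEGF-C receptor, had 13 fragments in 6 nuclei under sunitinib and 6 in 5 nuclei under vehicle, at 1.43 (-0.00 to 3.18). Kit, the stem cell factor receptor, had 3 sunitinib and 13 vehicle fragments, at -1.57 (-4.19 to 0.13). Pdgfra and Pdgfrb stood at -0.13 and -0.31, and Flt3, Csf1r and Ret had at most 5 fragments in either library. Only 3 of the 9 had 20 fragments or more, of which 0 were past 2-fold.

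Piezo1, the stretch-gated cation channel named in the study's title, had 20 fragments in 11 nuclei under sunitinib and 13 in 12 nuclei under vehicle. Its log2 ratio was 0.98 (-0.08 to 2.13) in endocardial nuclei, and 0.16 (-0.43 to 0.74) in the larger set with 3 marker fragments at 3 times the background. Members with 5 or more marker fragments had 18 sunitinib and 6 vehicle fragments, a ratio of 1.92 (0.60 to 3.62), and members with exactly 4 had 2 sunitinib and 7 vehicle fragments, at -1.34 (-4.86 to 0.83). It was 0.63 (0.11 to 1.20) in capillary nuclei, and the difference between the classes was not tested. Near its start sites there were 3 sunitinib and 4 vehicle fragments. The 8 stretch and flow sensing channels together stood at 0.50 (0.01 to 0.99) on 76 sunitinib and 70 vehicle fragments. That value was not stable, since it was -0.031 (-0.33 to 0.26) when the rule was relaxed to 3 marker fragments at 3 times the background. Trpv4 stood at 1.32 (-0.15 to 3.08), Pkd2 at 1.00 (-0.47 to 2.64), Pkd1 at 0.38 (-0.72 to 1.47) and Piezo2 at -1.06 (-3.73 to 0.80).

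**Figure D5:**
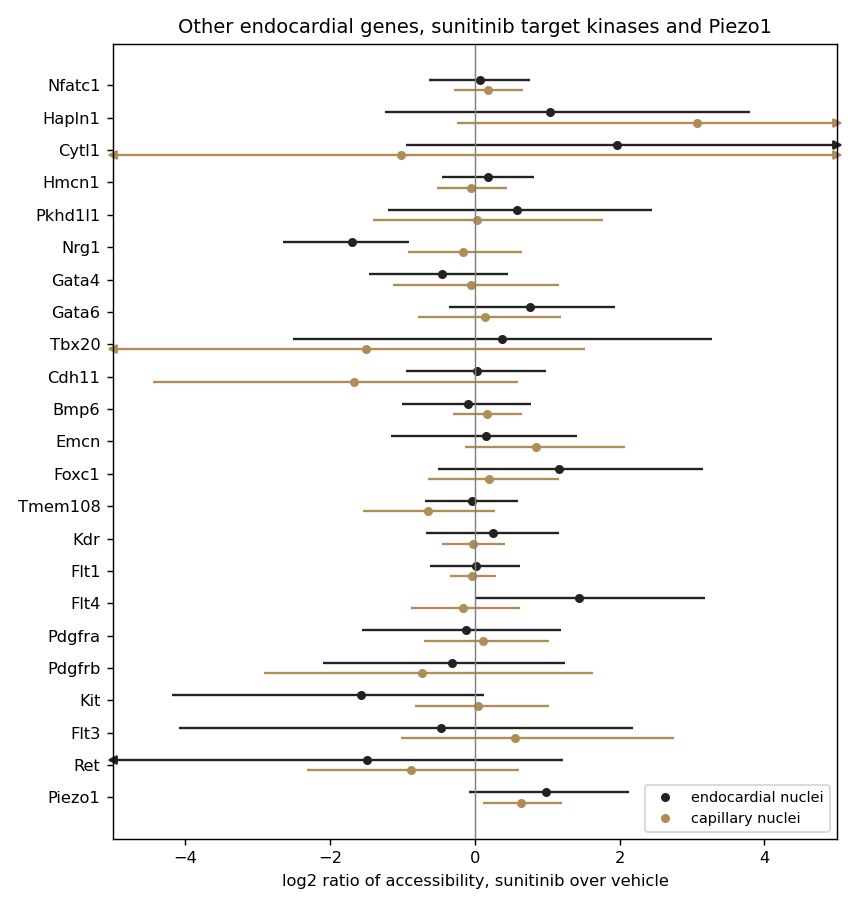
Log2 ratio of accessibility, sunitinib over vehicle (x axis), in endocardial nuclei (black, upper) and capillary nuclei (brown) for the other endocardial genes, the sunitinib target kinases and Piezo1 with at least 5 endocardial fragments; lines are exact 95% counting intervals and arrows mark intervals that leave the axis. Nrg1, at -1.70 in endocardial nuclei, has the one endocardial interval that lies wholly below 0.

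Among the remaining lists, few sums lay off 0 by more than counting error. Endothelial to mesenchymal transition genes had 59 sunitinib and 113 vehicle fragments, for a log2 ratio of -0.55 (-1.04 to -0.09), against 0.09 (-0.23 to 0.42) in capillary nuclei. With 3 marker fragments at 3 times the background it was -0.28 (-0.58 to 0.01). Zeb2 and Zeb1, transcriptional repressors of epithelial junction genes, had 17 sunitinib and 34 vehicle fragments (Zeb2) and 18 sunitinib and 31 vehicle fragments (Zeb1), with ratios of -0.60 (-1.55 to 0.26) and -0.39 (-1.33 to 0.48). Vim stood at -0.39 (-1.89 to 0.93). Zeb2 also separated the classes, at 1.74 (0.74 to 2.68) over capillary nuclei under sunitinib and 3.22 (2.05 to 4.86) under vehicle. VEGF ligands and co-receptors stood at -0.46 (-0.95 to -0.00), against 0.12 (-0.12 to 0.36) in capillary nuclei, with Vegfa at 3 sunitinib and 13 vehicle fragments, Vegfc at 4 sunitinib and 15 vehicle, Nrp1 at 24 sunitinib and 41 vehicle, and Nrp2 at 26 sunitinib and 34 vehicle. Pan-endothelial genes stood at 0.27 (0.02 to 0.51) in endocardial and 0.18 (0.04 to 0.32) in capillary nuclei. Notch genes, at 0.16 (-0.18 to 0.49), held members in both directions, Jag1 at 0.98 (-0.00 to 2.04) and Notch4 at -1.49 (-3.66 to 0.01). BMP and TGF-beta genes stood at 0.13 (-0.13 to 0.38), where Smad7, an inhibitor of TGF-beta signalling, was at 1.01 (0.00 to 2.11) on 22 sunitinib and 14 vehicle fragments. Flow-responsive, valve, matrix, coagulation, adhesion, retinoid and stress genes had sums between -0.07 and 0.17 with intervals that included 0.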

How the data were processed

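The authors deposited 1 ATAC fragment file per library, made with cellranger-arc 2.0.0 against mm10, per the file headers; Signac is also named in the submitters' processing notes. Each deposited row gives a unique fragment and the count of read pairs behind it, and each fragment was counted once here. Fragments over protein-coding genes (21728, GENCODE) were summed per barcode with Python 3.11.15, numpy 2.4.6, scipy 1.17.1 and pandas 2.3.3. Ratios are log2 of CPM (counts-per-million of a class's own fragments), with 0.5 counts added and exact conditional 95% intervals. Shares have exact Clopper-Pearson intervals. Read pairs are not independent molecules, and depth differs between nuclei, so intervals cover counting error only.

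Classes were called by marker rules, with no clustering and no doublet caller. The ratio calculation was tested on simulated data. With 1 library per group there was no test between treatments. Some of the 12 highest and 12 lowest measured genes were named, and the rest of these were not. Of endocardial over capillary nuclei in vehicle, the 15 highest were all named, with some of the 15 lowest, a set added later. The rule markers, the kinases and Piezo1 were all named. So were the other endocardial genes, though without values for Emcn, Foxc1, Gata6 and Pkhd1l1. Leading genes of the lists were also named, and other genes within a list were chosen after their values were seen. The members and lists were chosen with earlier results of these data known. The RNA arm and the Yoda1 library were not used here.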

Additional observations from a re-analysis of the deposited data

How the results depend on the processing

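The lower endocardial share under sunitinib kept its direction in all 19 alternatives that gave a ratio, from -1.53 to -0.58, and its interval included 0 only with each library's own background (-0.58, sunitinib share 1.17%). The shares were 0.415% under sunitinib and 0.927% under vehicle with 6 marker fragments, 0% and 0.148% at 8 times the background, and 1.15% and 2.85% with 3000 fragments. Thinning gave 1.24% under sunitinib. With 3 marker fragments at 3 times the background, chosen after seeing the data, as was leaving out single members, they were 1.87% and 4.34%. The other endocardial genes over capillary nuclei in vehicle were at 1.27 with 6 marker fragments and 1.58 at 8 times the background, where 0 sunitinib members gave no sunitinib value. Their sunitinib over vehicle sum was 0.21 within 1 kb of TSSs and 0.21 with fragments shorter than a nucleosome. Measured genes past 2-fold were 9 higher and 1 lower at the 50 fragment minimum, 1 lower with the own background (Nrg1) and 1 lower with 3 marker fragments at 3 times (Zeb2, -1.08). Reversed were Ttc28 (-0.47) and Sgms1 (-0.24) within 1 kb of TSSs, and the stretch and flow sensing channels (-0.031) with 3 marker fragments at 3 times; the cause was not tested. Nrg1 lay between -2.21 and -0.47, with an interval that included 0 only within 1 kb of TSSs. No paired analysis was possible because each group had 1 library. With 27 and 47 nuclei, most genes had too few fragments to show a 2-fold difference.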
